A study of Mus musculus with 8 samples.

Results

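Genes of the actomyosin and contractile cytoskeleton were examined in lymphatic endothelial cells, the cells that line the vessels draining fluid and leukocytes from tissue. The set was chosen by name, with earlier results of these data known. It held 42 genes of actin filaments, myosin motors, their regulators and their membrane linkers. Each was read from array probe sets whose annotation names that gene alone. Such probe sets were found for 40 of the 42 genes, among 18193 genes named in this way on the array. Rock2 and Arpc1b had none, so that their expression was not analysed here. The 40 genes were measured by 103 probe sets. They were grouped as 29 non-muscle genes, 6 genes typical of smooth muscle, and 5 counted as shared by both kinds of cell.

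The cells came from the ear skin of female FVB mice and were sorted as CD31+ podoplanin+ CD45- cells. For the inflamed group, contact hypersensitivity was raised: mice received 2% oxazolone on the skin to sensitise them and were challenged 5 days later on the ears with 10 µl of 1% oxazolone per ear side, with ears taken 24 hours after challenge. Untreated samples came from mice labelled healthy and untreated. Each group held 4 samples of 3 pooled mice, aged 8 to 10 weeks, in 4 pairs of 1 inflamed and 1 untreated sample whose sort and RNA extraction shared a day. The submitters picked these pairs by the quality of the extracted and amplified material. Because every sample is a pool of 3 mice, p-values refer to pools. The RNA was amplified and hybridised to 1 single-colour array per sample, and mean signals per array lay between 126.2 and 160.4. The comparison asks how transcripts of the sorted samples differ between the inflamed and untreated groups. No sample had vehicle or sensitisation alone, so contact hypersensitivity cannot be told apart from other effects of the treatment.

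Non-muscle cells carry a contractile apparatus of actin filaments, made of beta- and gamma-actin, on which non-muscle myosin II pulls. Phosphorylation of the myosin regulatory light chain, by myosin light chain kinase and other kinases, turns the motor on, and myosin phosphatase turns it off. In lymphatic endothelium this apparatus is known for setting cell shape and the opening of the junctions through which fluid and leukocytes enter. Smooth muscle cells and pericytes use their own isoforms, such as alpha smooth muscle actin, and cover collecting lymphatic vessels.

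The 7 of 8 lymphatic endothelial markers measured, among them Prox1, Lyve1, Pdpn and Flt4, and the 8 pan-endothelial markers lay above the background ceiling on all 8 arrays. This ceiling is the 95th percentile of bacterial control probe sets on each array, between 2.53 and 3.31 on the log2 scale. Summed linear signals of the lymphatic markers were 12070 to 20810 in inflamed samples, against 21820 to 28300 in untreated samples. Of the 7, 3 were lower at a limma adjusted p under 0.05, namely Mmrn1, Reln and Nrp2. Changes were below 0 for 6 of the 7, while Pdpn, a sort marker, differed by 0.56, higher in all 4 pairs, and did not pass. The pan-endothelial markers summed to 4861 to 9847 in inflamed and 7713 to 14180 in untreated samples, lower in all 4 pairs. Of the 8, 3 were lower at that threshold, namely Kdr, Tek and Tie1. Changes were below 0 for 6 of the 8, while Cdh5 and Emcn differed by 0.50 and 0.23, each higher in 3 of 4 pairs, and did not pass. Marker sums of other cells moved too. The 9 measured of 12 neutrophil markers summed to 702.6 to 1659 in inflamed and 30.2 to 67.8 in untreated samples, carried by S100a8 and S100a9. These 2 lay above the ceiling on all 4 inflamed and on 1 of 4 untreated arrays, and the other measured neutrophil markers were too dim to be tested. The 8 fibroblast markers summed to 10240 to 24350 in inflamed and 4391 to 19570 in untreated samples, higher in all 4 pairs. Sums of the 11 monocyte and macrophage markers were 594.5 to 1788 in inflamed and 491.9 to 1145 in untreated samples, higher in 3 of 4 pairs. Keratinocyte markers mostly went the other way, at 84.4 to 871.5 against 727.1 to 3503, with overlapping ranges and 1 of 4 pairs higher. The part of these cells in the changes below was not tested. In sorted bulk RNA, fewer cells of a type and less RNA per cell cannot be told apart.

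In inflamed samples 7 non-muscle genes rose, namely Tpm3, Actg1, Actn1, Arpc2, Pfn1, Cfl1 and Myh9. The regulatory light chain gene Myl12b and the kinase gene Mylk fell. Of the 40 genes, 35 passed a filter on dim probe sets and were tested, and 9 of these 35, or 25.7%, passed the threshold (limma with the pair as a block, Benjamini-Hochberg adjusted p under 0.05 over 10843 genes). Among all tested genes 6.94% passed, 3.91% higher and 3.02% lower. Calls were more frequent among bright genes: of the 1498 genes with a mean log2 signal of 9 or more, 19.0% passed, 13.0% higher and 6.01% lower, while 9 of the 22 cytoskeletal genes in that range passed. None of the 13 dimmer ones did; 1 was higher and 1 lower at an unadjusted p under 0.05. With any 1 pair left out, 2 to 3 were higher and 0 to 1 lower. Without the pair block 3 were higher and 2 lower, and without the intensity trend in the variance 0 passed in either direction, 4 higher and 3 lower at an unadjusted p under 0.05.

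**Figure D1:**
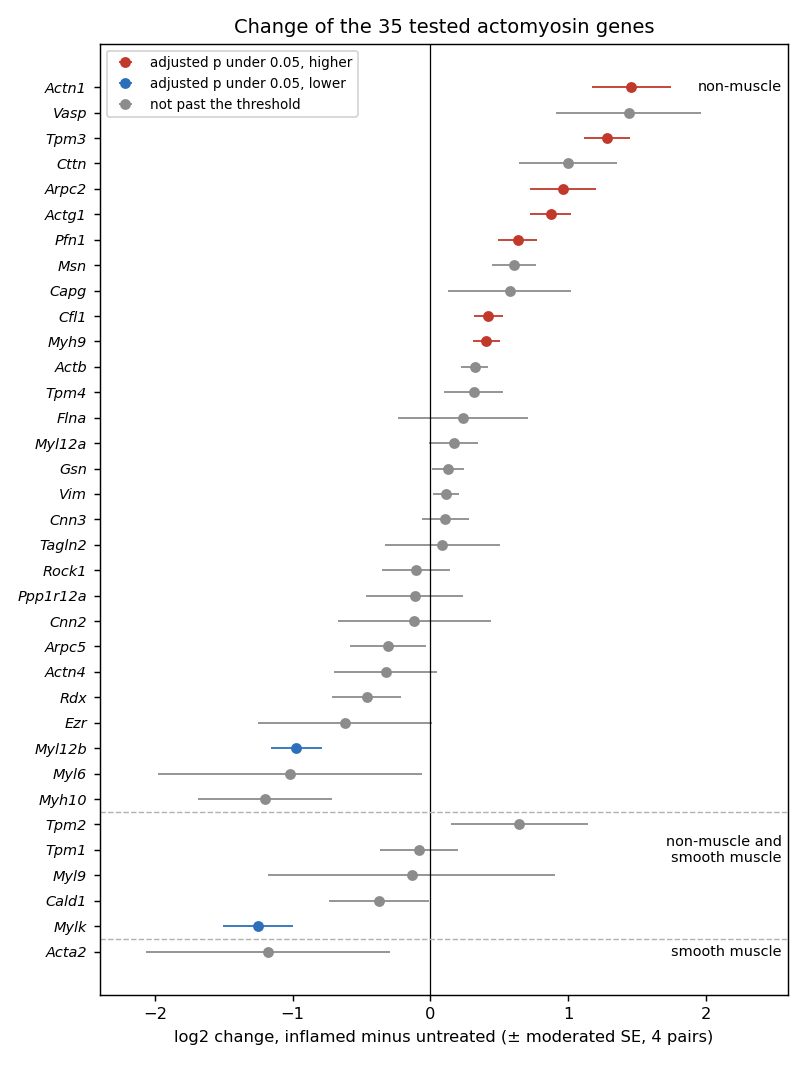
Change in log2 signal, inflamed minus untreated, of the 35 tested genes (points) with the moderated SE (bars), grouped as non-muscle, shared and smooth muscle genes. The 7 higher genes are all non-muscle, and Acta2 is the only smooth muscle gene that passed the filter.

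Bright genes as a whole were shifted upwards, which bears on the smaller rises. Among the 64 tested genes with a mean log2 signal of 12 or more, the median change was 0.28, and 81.2% were above 0. It was 0.23 for the 207 genes from 11 to 12, 0.14 for the 406 from 10 to 11 and 0.10 for the 821 from 9 to 10. Over all genes it was -0.09. Probe sets for transcripts normally spiked into the hybridisation mix averaged 12.43 ± 0.15 on the inflamed arrays, against 12.16 ± 0.23 on the untreated arrays (SD, n = 4 each), a mean difference of 0.27, higher in all 4 pairs. The changes of Cfl1, 0.42, and Myh9, 0.41, thus stand beside shifts of 0.28 in genes of like brightness and 0.27 in these controls.

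**Figure D2:**
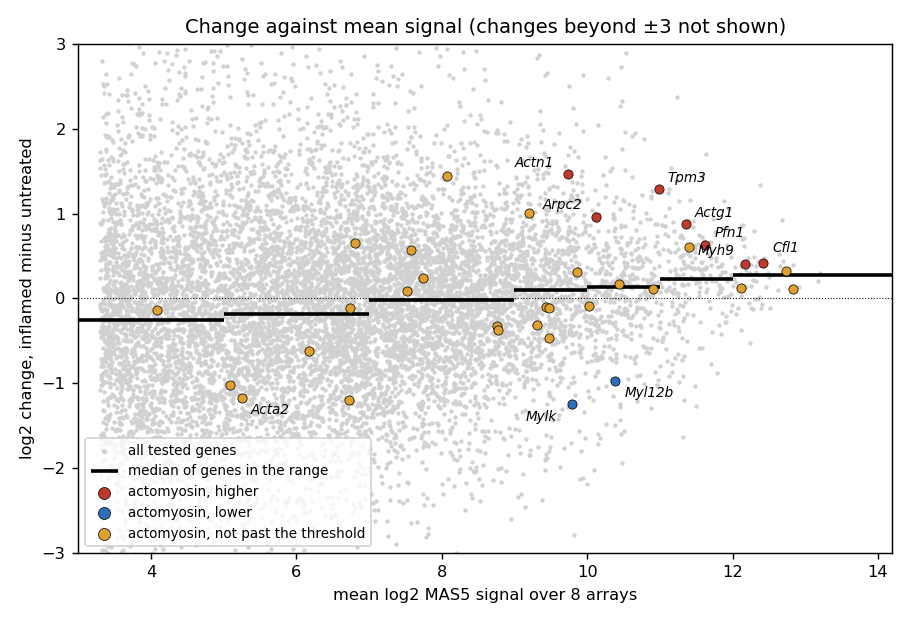
Change in log2 signal, inflamed minus untreated, against mean log2 signal over 8 arrays, for all tested genes (grey) and the cytoskeletal genes (coloured), with the median change in each signal range (black lines). Medians climb from -0.25 among the dimmest genes to 0.28 among the brightest; Tpm3, Actg1 and Actn1 lie well above the median of their range, Cfl1 and Myh9 closer to it.

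The actins were the first group. Actg1, which encodes cytoplasmic gamma-actin, had log2 signals of 11.50, 12.04, 11.74 and 11.89 in inflamed samples 1 to 4, against 10.90, 10.86, 11.05 and 10.87 in untreated samples 1 to 4. All inflamed samples lay above all untreated ones; 6.3% of all tested genes showed such a separation upwards. Its change was 0.87 ± 0.15 (SE), or 1.83-fold (limma adjusted p = 0.00938). Actb, which encodes cytoplasmic beta-actin, had 12.74, 12.88, 12.65 and 13.29 in inflamed and 12.63, 12.59, 12.35 and 12.70 in untreated samples. It was higher in all 4 pairs with overlapping groups, a difference of 0.32 ± 0.10 that did not pass (limma adjusted p = 0.0853). Its second probe set differed by 0.46, and the array's own quality control sets for the 3', middle and 5' parts of Actb by 0.50, 0.48 and 0.49, each higher in all 4 pairs. Actb passed under 3 of 15 alternatives, median centring, the stricter filter and the mean of probe sets, while under cyclic loess normalization its difference was -0.05. The log2 ratio of the 3' to the 5' set of Actb was -0.07 in inflamed and -0.08 in untreated samples. That of Gapdh was 3.06 and 3.86, a mean difference of -0.80, lower in inflamed samples in all 4 pairs. The bearing of this difference on the calls was not tested. Actb and Actg1 code for nearly identical proteins, and the single probe set of Actg1 is of a class that may match transcripts of other genes.

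**Figure D3:**
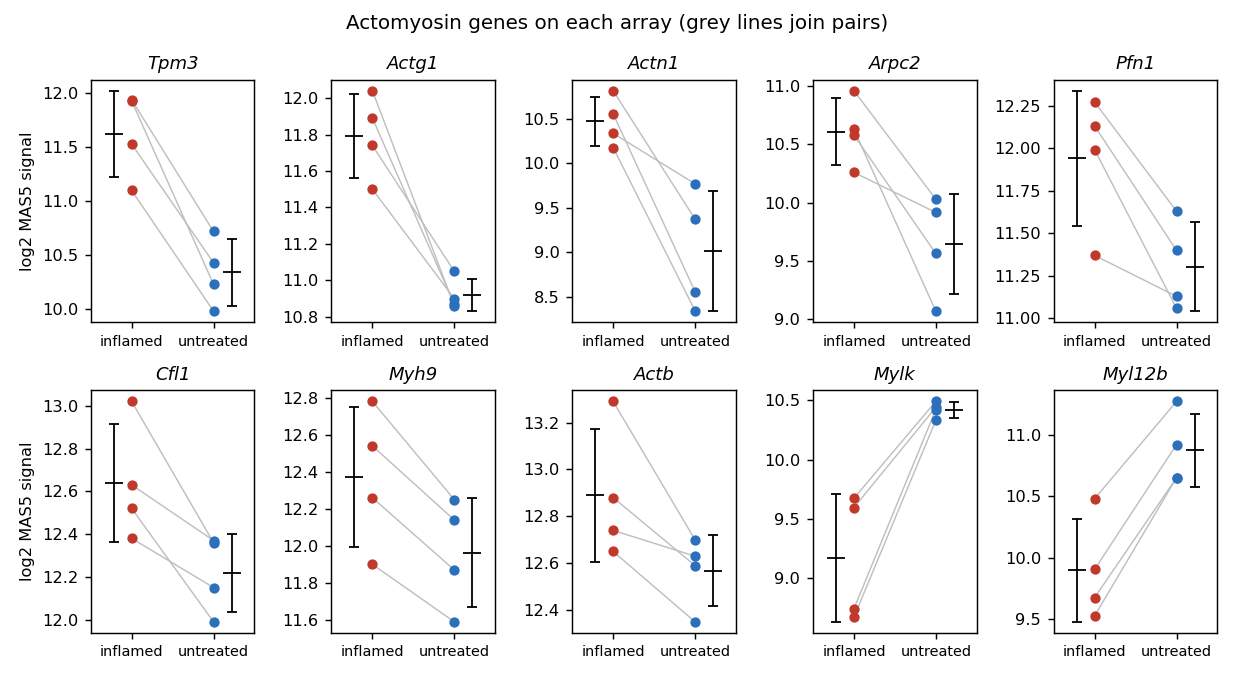
Log2 signal on each array for the 9 genes past the threshold and Actb: inflamed samples (red, left), untreated samples (blue, right), grey lines joining pairs, black marks the mean and SD of 4. Panels have their own vertical ranges. For Tpm3, Actg1, Actn1, Arpc2 and Cfl1 all red points lie above all blue ones, and for Mylk and Myl12b all lie below.

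Promoter sequences of 36 of the 42 genes, Rock2 and Arpc1b included, were found in RefSeq (GRCm38.p6, windows of 300 bases around the transcript start). Those of Actb, Actg2, Cttn, Myh11, Rock1 and Tagln were not analysed here, so the counts below leave out these 6 genes. The CArG box, to which serum response factor binds and through which free actin is known to feed back on actin genes, was present in 4 of the 42 promoters listed for them, or 9.52%, against 1.63% of all 32851. The genes were Actg1, Cnn2, Myl6 and Myl9, of which Actg1 rose and the other three did not pass. A kB site was present in 9 of the 42, or 21.4%, against 8.46% of all. The genes were Tpm3, which rose, Arpc5, Flna, Myl12a, Myl9, Rdx, Tagln2 and Vim, which did not pass, and Des, which was not tested. The muscle element CATTCC was present in 11, or 26.2%, against 14.7%. The genes were Arpc2 and Pfn1, which rose, Mylk, which fell, and Acta2, Actn4, Cald1, Flna, Myh10, Myl12a, Tagln2 and Tpm1, which did not pass. Whether any motif relates to the changes was not tested. Each motif was searched on both strands, and base composition was not matched. The sequences below run 5' to 3' with the motif in capitals, the CArG box in all but Tpm3, where it is the kB site. Actg1 and Tpm3 are shown whole because they were the steadiest rises, and the other 3 as short stretches around the box, for comparison. Counted from the transcript start, the box begins at -90 in Actg1, -56 in Cnn2, -50 in Myl6 and -161 in Myl9, and the kB site at -7 in Tpm3.
Actg1, chr11:120348446-120348745, minus strand: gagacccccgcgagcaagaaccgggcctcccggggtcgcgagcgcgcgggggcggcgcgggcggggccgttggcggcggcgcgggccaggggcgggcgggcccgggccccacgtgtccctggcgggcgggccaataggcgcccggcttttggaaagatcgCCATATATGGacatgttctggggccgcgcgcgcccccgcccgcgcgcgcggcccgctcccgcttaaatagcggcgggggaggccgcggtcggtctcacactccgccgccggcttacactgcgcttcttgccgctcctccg
Tpm3, chr3:90079271-90079570, plus strand: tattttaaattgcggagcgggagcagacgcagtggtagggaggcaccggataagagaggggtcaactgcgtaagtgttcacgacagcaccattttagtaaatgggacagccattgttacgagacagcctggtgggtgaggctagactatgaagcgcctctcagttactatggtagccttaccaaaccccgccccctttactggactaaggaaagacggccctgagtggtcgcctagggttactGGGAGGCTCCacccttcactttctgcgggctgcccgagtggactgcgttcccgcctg
Cnn2, within chr10:79988350-79988649, plus strand: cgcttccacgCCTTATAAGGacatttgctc
Myl6, within chr10:128492960-128493259, minus strand: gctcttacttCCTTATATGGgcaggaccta
Myl9, within chr2:156775214-156775513, plus strand: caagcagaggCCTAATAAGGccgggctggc

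Tropomyosins wrap around actin filaments and govern which motors and severing proteins reach them. Tpm3 had log2 signals of 11.10, 11.93, 11.53 and 11.94 in inflamed samples, against 9.98, 10.23, 10.43 and 10.72 in untreated samples. The groups did not overlap, and the change was 1.28 ± 0.17 (SE), or 2.44-fold, with the smallest adjusted p of the set (limma adjusted p = 0.00247). Of its other probe sets, 3 changed by 0.98 to 1.28 and 1, dimmer, by 0.08. Tpm4, the other mainly non-muscle tropomyosin, differed by 0.32 ± 0.22 and was higher in all 4 pairs. Tpm1 and Tpm2, used in muscle and non-muscle cells alike, differed by -0.09 ± 0.28 and 0.65 ± 0.50. None of these 3 passed, and the differences between tropomyosins were not tested.

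Among crosslinkers, Actn1, the non-muscle alpha-actinin that bundles filaments in stress fibres and at adhesions, had 10.18, 10.34, 10.82 and 10.56 in inflamed samples and 8.34, 9.77, 9.37 and 8.56 in untreated samples. The groups were apart, by 1.46 ± 0.28 (SE), or 2.76-fold (limma adjusted p = 0.0162). Its other probe sets changed by 1.02 and 2.05. The call ended without pair 1, pair 3 or pair 4, without the intensity trend and with the mean of probe sets; over all 15 alternatives the limma adjusted p lay between 0.00825 and 0.151. Actn4, its close relative, differed by -0.32 ± 0.38, and the crosslinker Flna by 0.24 ± 0.47. Neither passed.

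Filament assembly and turnover genes gave 3 of the rises. Arpc2, a core subunit of the Arp2/3 complex that starts branched filaments, had 10.96, 10.63, 10.26 and 10.58 in inflamed samples, against 10.03, 9.07, 9.92 and 9.57 in untreated samples. With no overlap, its change was 0.96 ± 0.24 (SE; limma adjusted p = 0.0439). Arpc5, another subunit of the complex, differed by -0.31 ± 0.28 and did not pass. Pfn1, profilin, which loads actin monomers onto growing ends, had 11.37, 12.13, 11.99 and 12.27 in inflamed samples and 11.13, 11.40, 11.06 and 11.63 in untreated samples. Inflamed sample 1 lay below untreated samples 2 and 4, though each pair went up, by 0.64 ± 0.14 on average (limma adjusted p = 0.0305). Cfl1, cofilin, which severs old filaments, had 12.38, 12.63, 12.52 and 13.02 in inflamed samples, against 12.15, 12.37, 11.99 and 12.36 in untreated samples. These groups were only just apart, by 0.42 ± 0.11 (limma adjusted p = 0.0449). The Cfl1 set used is of a class that may match transcripts of other genes, and a second probe set, not of that class, changed by 0.80. The calls of Arpc2, Pfn1 and Cfl1 ended under quantile and cyclic loess normalization, without the pair block and on centring to the hybridisation controls, where their changes were 0.69, 0.37 and 0.15. They also ended without the intensity trend, for Arpc2 and Cfl1 with any 1 of the 4 pairs left out, and for Pfn1 without pair 2, pair 3 or pair 4.

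Further genes of this group did not pass. Vasp, which lengthens filaments at leading edges, differed by 1.44 ± 0.52 (SE) and was higher in all 4 pairs, and cortactin, Cttn, a stabiliser of branched filaments, by 1.00 ± 0.35 in 3 of 4 pairs. Adjusted p was 0.142 and 0.133 in limma. The capping protein gene Capg differed by 0.58 ± 0.45 and gelsolin, Gsn, which severs and caps filaments, by 0.13 ± 0.12. Both Capg and Gsn are also abundant in leukocytes or fibroblasts.

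Among genes of the myosin motor and its switch, Myh9 rose and Mylk and Myl12b fell; no test compared motor with switch genes. Myh9, the heavy chain of non-muscle myosin IIA, had 11.90, 12.54, 12.26 and 12.78 in inflamed samples, against 11.59, 12.14, 11.87 and 12.25 in untreated samples. The groups overlapped, but every pair went up by a similar step, 0.41 ± 0.10 on average (SE; limma adjusted p = 0.0415). Its other 4 probe sets gave 0.41, 0.11, 0.67 and -1.0, and the call held under only 3 of the 15 alternatives. On centring to the hybridisation controls its change was 0.14. Myh10, the heavy chain of myosin IIB, differed by -1.20 ± 0.49, with 6.53, 5.90, 6.16 and 5.94 in inflamed samples and 7.58, 7.39, 7.35 and 6.99 in untreated samples. Its groups did not overlap, yet it did not pass (limma adjusted p = 0.19).

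Mylk, the kinase that phosphorylates the regulatory light chain, had 8.67, 9.60, 9.67 and 8.74 in inflamed samples, against 10.33, 10.44, 10.49 and 10.42 in untreated samples. The untreated values were tightly grouped and all lay above the inflamed ones; 6.84% of all tested genes were separated in that direction. Mylk fell by 1.25 on the log2 scale, with an SE of 0.26 (limma adjusted p = 0.0198). Its other 2 probe sets gave -0.52 and -2.20. Myl12b, one of the near-identical regulatory light chain genes, had 9.68, 9.91, 9.53 and 10.48 in inflamed samples, against 10.65, 10.92, 10.65 and 11.27 in untreated samples. It fell by 0.97, with an SE of 0.18, with no overlap (limma adjusted p = 0.0137), and its second probe set gave -1.07. Myl12a, its neighbour in sequence, differed by 0.17 ± 0.18 and did not pass (limma adjusted p = 0.631). Both falls kept their sign under all 15 alternatives, but each call ended under 6 of them. Both ended under median centring, where the changes were -0.95 and -0.67, with the mean of probe sets, without the intensity trend and without pair 1 or pair 3; that of Mylk also ended without pair 4 and that of Myl12b without pair 2.

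Other genes of the motor and its switch did not pass. The kinase gene Rock1 differed by -0.11 ± 0.25 (SE) and the myosin phosphatase subunit gene Ppp1r12a by -0.11 ± 0.35. The essential light chain gene Myl6, grouped here with the non-muscle genes, differed by -1.02 ± 0.96. The shared genes Myl9, a regulatory light chain, and Cald1, caldesmon, differed by -0.14 ± 1.04 and -0.37 ± 0.36. The lowest limma adjusted p of these 5 was 0.594. Myl6 lay above the background ceiling on 3 of 4 inflamed and 4 of 4 untreated arrays, and Myl9 on 3 of 4 in each group. Such dim values do not show that Myl6 and Myl9 were unchanged.

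The linkers between actin and the membrane were moesin, radixin and ezrin. Msn, moesin, the main endothelial member, had 11.39, 11.89, 11.82 and 11.75 in inflamed samples, against 11.09, 10.85, 11.44 and 11.04 in untreated samples. The groups overlapped slightly, and it was higher in all 4 pairs, by 0.61 ± 0.16 (SE), just short of the threshold (limma adjusted p = 0.0519), and passed under 4 of 15 alternatives. Rdx differed by -0.46 ± 0.25 and was lower in all 4 pairs, while its other probe sets of like brightness gave -0.08 and -0.09, each lower in 2 of 4 pairs. Ezr differed by -0.62 ± 0.63. Vim, the intermediate filament protein vimentin, differed by 0.12 ± 0.09, the actin-binding proteins Cnn2 and Cnn3 by -0.12 ± 0.56 and 0.11 ± 0.17, and Tagln2 by 0.09 ± 0.42. None of these 6 passed.

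Smooth muscle genes lay at or near background. Actg2, enteric smooth muscle actin, and Cnn1, calponin 1, were under the ceiling on all 8 arrays. Des, desmin, was above it on 1 of 4 inflamed and 1 of 4 untreated arrays, and Myh11, the smooth muscle myosin heavy chain, and Tagln, transgelin, on 2 of 4 in each group. Actg2 had log2 signals of 1.56, 0.16, -0.01 and -0.05 in inflamed samples, against -0.66, 0.34, 0.15 and -0.04 in untreated samples. Cnn1 had 0.68, 1.28, 1.03 and 2.36 in inflamed samples, against 2.48, 0.33, 0.00 and 0.31 in untreated samples. Both sets of values overlap and lie where the order of signals carries no meaning. Des had 2.17, 1.23, 0.48 and 5.17 in inflamed samples, against 4.56, 1.19, -0.03 and 0.89 in untreated samples. Myh11 had 2.74, 2.88, 3.88 and 4.01 in inflamed samples, against 2.96, 1.85, 0.56 and 3.41 in untreated samples. Tagln had 2.74, 3.37, 0.65 and 5.10 in inflamed samples, against 3.64, 1.16, 1.85 and 4.70 in untreated samples. In each of these 3 the groups overlapped, and inflamed sample 4 was the highest of the 8.

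These 5 did not pass the filter on dim probe sets, which stood at 3.30, and were not tested: Tagln was the nearest outside, at a mean of 2.90, and Myl9 the nearest inside, at 4.09. None of the 35 tested cytoskeletal genes passed through one group alone, their lowest group mean being 4.02, for Myl9 in inflamed samples.

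Acta2, alpha smooth muscle actin, was the exception, through 1 of its 3 probe sets. That set is of a class that may match transcripts of other genes. The others, with means of 2.02 and 0.28, lay under the filter and differed by 0.92 and -0.00174. On the set used, Acta2 had 5.33, 4.74, 2.81 and 5.76 in inflamed samples, against 9.03, 4.70, 5.05 and 4.58 in untreated samples. Untreated sample 1 stood far above the other 7. The difference was -1.18 ± 0.88 (SE) and did not pass (limma adjusted p = 0.491), and it was -0.34 without pair 1. Untreated sample 1 was also the highest of 8 for Myl9, at 6.75 against 2.63 to 5.27 elsewhere. Of the 12 pericyte and smooth muscle markers it was the highest for 6, namely Rgs5, at 8.61 against 1.96 to 5.70 elsewhere, Heyl, at 7.54 against -0.29 to 3.97, Pdgfrb, Cspg4, Abcc9 and Notch3. It was not the highest for the other 6, Kcnj8, Smtn, Lmod1, Synpo2, Myocd and Mcam. The 12 pericyte and smooth muscle markers summed to 497.3 to 1190 in inflamed and 368.5 to 2111 in untreated samples, with 0 of 6 tested past the threshold and 2 lower at an unadjusted p under 0.05. Sums of the 12 skeletal muscle markers were 65.9 to 763.8 and 80.7 to 540.6, and 0 of 5 tested passed, with none at an unadjusted p under 0.05.

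**Figure D4:**
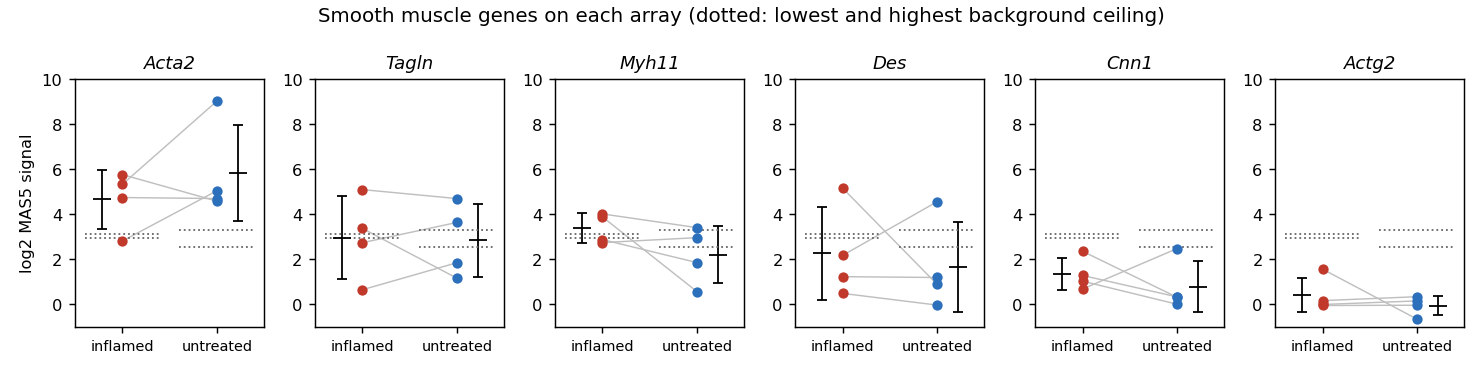
Log2 signal of the 6 smooth muscle genes on each array: inflamed samples (red, left), untreated samples (blue, right), grey lines joining pairs, black marks the mean and SD of 4, dotted lines the lowest and highest background ceiling of each group. Actg2 and Cnn1 stay under the ceiling, and Acta2 reaches 9.03 in untreated sample 1.

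Beyond the set, 7 of 68 tested genes of actin assembly, crosslinking and other myosins passed, 4 higher and 3 lower. That is 10.3% against 6.94% of all genes, and the median change was 0.01. Brightness was not matched here, and among all genes with a mean log2 signal of 9 or more 19.0% passed. Of 32 tested assembly and capping genes, 2 were higher and 1 lower. Actr3, the Arp3 subunit of the complex that also holds Arpc2, rose by 1.02 ± 0.25 (SE), with 10.17, 10.24, 10.07 and 9.92 in inflamed samples and 8.82, 8.96, 9.39 and 9.15 in untreated samples. Tmsb10, a thymosin that binds actin monomers, rose by 0.48 ± 0.11 with overlapping groups. This stands beside shifts of 0.28 in genes of like brightness and 0.27 in the hybridisation controls. The formin gene Daam1 fell by 2.30. Of 24 tested crosslinkers and adhesion linkers, 2 were higher and 2 lower. Lcp1, the plastin of leukocytes and 1 of the 4 genes counted as higher, had 5.88, 7.79, 7.75 and 9.40 in inflamed samples, against 0.44, 4.64, 0.55 and 0.54 in untreated samples. It was above background on all 4 inflamed and on 1 of 4 untreated arrays, so it passed the filter through the inflamed group alone, and no fold is given. Lcp1 was higher in all 4 pairs, and the part of leukocyte RNA in it was not tested. Pdlim1, which binds alpha-actinin, rose by 1.65 ± 0.36, the bundling protein gene Fscn1 fell by 0.68 and the spectrin gene Sptbn1 by 0.72. Adjusted p of the 6 genes other than Lcp1 lay between 0.0154 and 0.0456 in limma. None of 12 other myosin genes passed, with 1 higher and 3 lower at an unadjusted p under 0.05.

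Scaling moved the balance of calls over all genes: 56.4% of them were higher as reported, 76.0% after median centring and 35.6% after centring on the hybridisation controls, where the median change of all genes was -0.09, 0.22 and -0.36. Calls differed in how far they held over 15 alternatives of normalization, filter, variance model, pairing and left-out pairs. Tpm3 and Actg1 passed in 14 of 15, ending only without the intensity trend, with adjusted p of 0.143 and 0.255. Actn1 passed in 10, Mylk and Myl12b in 9 each, Pfn1 in 6, Arpc2 in 5, Cfl1 in 4 and Myh9 in 3. All 9 kept their sign throughout.

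**Figure D5:**
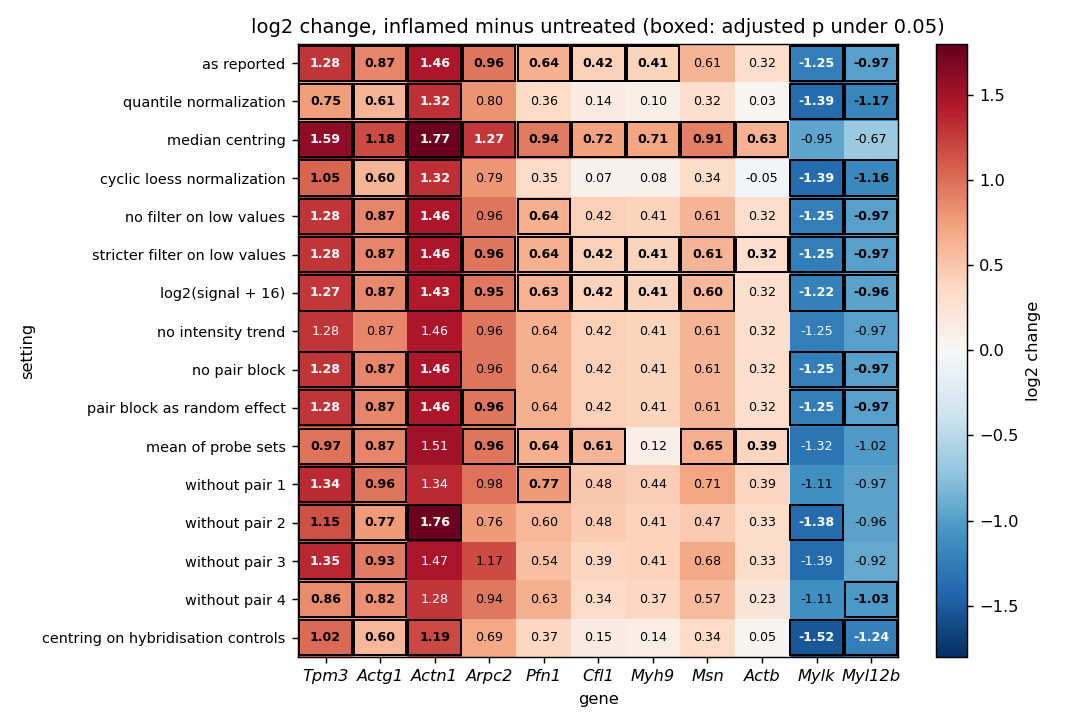
Change in log2 signal, inflamed minus untreated, of the 9 genes past the threshold and of Msn and Actb (columns) as reported and under each of 15 alternatives (rows). Boxes mark an adjusted p under 0.05. The columns of Tpm3 and Actg1 are boxed in all but 1 row, that of Myh9 in 4.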

How the data were processed

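Cells were profiled on 8 single-colour arrays. The deposited intensity values are MAS5 signals on a linear scale, 1 per probe set and array, per the submitters' processing notes. Which scaling target was set, and whether detection calls were used, is not given in the sources used here. Of 45101 probe sets, 64 controls were set aside. GEO's platform annotation gave 1 gene for 34945, several for 932 and none for 9160.

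Signals were taken as log2 with no further normalization and no pseudocount. Array medians differed by at most 0.468. Probe sets under the median of all means (3.30) were left out, and the brightest probe set stood for a gene, leaving 10843 genes. Limma 3.58.1 in R 4.3.3 (lmFit, eBayes with an intensity trend) was fitted with the pair as a fixed block, two-sided, on 3 residual and a median of 6.27 prior degrees of freedom. The Benjamini-Hochberg adjustment covered all genes. The SE is limma's moderated one. Steps were tested on simulated data. Pairs were taken from the shared replicate numbers and the submitters' statement of shared days. Deviations from group means correlated at 0.16, -0.00 (pair 2), 0.08 and 0.03 within pairs, across genes.

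The genes, the lists and the split into non-muscle, shared and smooth muscle genes were chosen with earlier results of these data known. Named are genes past the threshold, all smooth muscle genes, Actb, Actg1 and Myh9, and up to 4 per list of other genes. Every measured member was accounted for, so others are given as well. The background ceiling, the signal ranges and the centring on hybridisation controls were chosen after the data were seen. The number of arrays limits precision. One list of pathway genes is not reported here.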

Additional observations from a re-analysis of the deposited data

Results flagged for a closer look

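In 80 groups of 4 samples, 1 per measured gene and condition, 7 held a sample whose gap to the nearest other exceeded Dixon's 95% critical value for 4 samples. Chance gives about 1 in 20. In untreated sample 1, Acta2 stood at 9.03 (nearest other 5.05), Cnn1 at 2.48 (nearest 0.33, both under background), Capg at 7.72 (nearest 7.15) and Tpm4 at 9.26 (nearest 9.79, below the others). In inflamed sample 1, Ezr was low at 4.77 (nearest 6.13) and Actg2 high at 1.56 (nearest 0.16, both under background). In untreated sample 4, Actn4 was high at 9.78 (nearest 8.74). Of the 7, 6 fell in pair 1. None of these 7 genes was past the threshold of the test.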

How the results depend on the processing

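All 9 called genes kept their direction under 15 alternatives, 1 of them (centring on hybridisation controls) chosen after seeing the data; the causes of lost calls were not tested. Among the cytoskeletal genes the number higher was 3 under quantile and cyclic loess normalization, without the replicate block and on hybridisation centring, 4 with no filter and with the pair as a random block, and 0 without the intensity trend; leaving out 1 pair gave 2 to 3. The number lower was 0 under median centring, the mean of probe sets and no trend, and 0 to 1 with 1 pair left out. At an unadjusted p under 0.05 limma gave 2 lower under median centring, 3 with the mean of probe sets, 4 higher and 3 lower without the trend, and 2 lower with any 1 pair left out. Of all genes, 719 were higher under median centring, 94 higher and 47 lower without the trend, 194 to 293 higher and 103 to 185 lower with 1 pair left out, and 542 lower on hybridisation centring. Of the other actin pathway genes, 2 were higher under quantile and loess normalization and on hybridisation centring, 0 higher and 0 lower without the trend (6 and 3 unadjusted), and 1 to 2 higher and 0 to 2 lower with 1 pair left out (7 to 9 lower unadjusted); 1 was lower under median centring and 8 on hybridisation centring.

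Signs turned only in genes that did not pass. Under quantile normalization Myl9 was 0.15, Myl12a -0.00214, Cnn3 -0.11, Gsn -0.12 and Vim -0.15. Under loess Actb was -0.0506, Myl9 0.21, Myl12a -0.026, Cnn3 -0.12, Gsn -0.20 and Vim -0.27. Under median centring Tpm1 was 0.22, Myl9 0.17, Ppp1r12a 0.19, Rock1 0.20 and Cnn2 0.19. On hybridisation centring Myl12a was -0.10, Cnn3 -0.16, Tagln2 -0.18, Flna -0.0284, Gsn -0.14 and Vim -0.15. With the mean of probe sets Tpm1 was 0.51, Rock1 0.0432, Cald1 0.35 and Vim -0.0397. With 1 pair left out, the lowest and highest values were Actn4 -0.625 to 0.00676, Tpm1 -0.233 to 0.263, Myl6 -1.95 to 0.0907, Myl9 -1.06 to 1.09, Ppp1r12a -0.479 to 0.238, Cnn2 -0.432 to 0.325, Tagln2 -0.00864 to 0.172, Cald1 -0.52 to 0.00947 and Flna -0.00458 to 0.689. Signal near background limits the smooth muscle genes.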
